A study of Mus musculus with 37 samples.

Results

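Potassium channels set the resting potential of neurons, end their action potentials and space their firing, and brain tissue makes many kinds of them. Pore-forming subunits assemble into channels opened by voltage or by intracellular calcium or sodium, into inward rectifiers, or into channels open at rest. Auxiliary subunits change the gating of those pores and their delivery to the membrane. Stress hormones acting through the glucocorticoid receptor are known to alter the excitability of hippocampal neurons, and the receptor is itself a transcription factor.

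The genes described here are those whose RefSeq transcript on the array mapped to a mouse symbol starting with Kcn, with 1 feature kept per gene, the one with the highest mean over all arrays. They numbered 82 of the 16489 genes that could be named, from 98 such symbols in the RefSeq table used. By role or family they comprised 25 voltage-gated pore genes, 8 modifier pore genes that carry no current alone and 15 inward rectifier genes. There were also 10 two-pore-domain genes, 7 genes of the calcium- or sodium-activated channel family (Kcnma, Kcnn, Kcnt and Kcnu) and 15 auxiliary or interacting genes. The last 2 were noncoding transcripts, Kcnq1ot1 and Kcnmb4os1. Several features were present for 5 genes, Kcnc1, Kcnd3, Kcnj6 and Kcnt1 among them, and the others of a gene are given where they differ.

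The arrays measured laser-captured hippocampal dentate gyrus (DG) or nucleus accumbens (NAcc) from adult male C57BL/6J mice that were not disturbed before collection in the morning. Mice of one group carried forebrain overexpression of the receptor (GRov) during early life only (6 DG and 6 NAcc arrays), those of another throughout the lifetime (6 and 7), and the remaining mice were controls (6 and 6). The promoter driving the transgene, its copy number and the age in days are not given in the sources used here. The 37 arrays came from 19 animals, of which 18 gave both regions. In the text the groups are called early, lifetime and control.

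Values are log2 signals made by the authors with RMA, and levels of different genes are not compared because probes differ. No detection calls were used, so a low signal cannot be told from background here. In this laser-captured tissue fewer cells of a type and less RNA per cell cannot be told apart. The mean of 8 granule cell markers was 10.002 to 10.9 on DG arrays and 5.74 to 6.42 on NAcc arrays, and that of 7 medium spiny neuron markers was 7.32 to 7.82 on DG arrays and 8.73 to 10.4 on NAcc arrays. Nr3c1, the gene of the receptor, had medians of 8.25 (early), 8.36 (lifetime) and 8.14 (control) in DG, and of 7.54, 7.80 and 7.40 in NAcc in the same order. Array 5 of NAcc early stood apart, with a mean correlation of 0.773 with the other arrays of its group and the lowest medium spiny neuron mean of NAcc (8.73). It enters every NAcc result, and the main values it touches are also given without it. In DG the arrays themselves differed between groups: the interquartile range of all values was 2.85 ± 0.09 in early, 2.87 ± 0.10 in lifetime and 2.71 ± 0.04 in control (SD, n = 6 each).

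Promoter windows from RefSeq (GRCm38.p6, 300 bases around an annotated start, written along the gene's strand) are shown for the genes on which the results turn. Kcnk2, Kcnk1 and Kcnip4 were the 3 genes called between lifetime and early in DG, and Kcna5 had the widest difference between regions. Capitals mark the core of the glucocorticoid response element (ACANNNTGT, which is the same on both strands) or its half-site (TGTTCT, searched on both strands).
Kcnk2, chr1:189402224-189402523, minus strand, the first of 4 windows: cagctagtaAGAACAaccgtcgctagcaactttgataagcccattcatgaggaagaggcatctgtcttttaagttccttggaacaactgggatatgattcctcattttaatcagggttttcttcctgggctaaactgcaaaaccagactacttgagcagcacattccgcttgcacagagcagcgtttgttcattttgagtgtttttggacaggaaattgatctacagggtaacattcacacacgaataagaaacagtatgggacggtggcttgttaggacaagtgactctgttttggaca
Kcnk1, chr8:125994852-125995151, plus strand: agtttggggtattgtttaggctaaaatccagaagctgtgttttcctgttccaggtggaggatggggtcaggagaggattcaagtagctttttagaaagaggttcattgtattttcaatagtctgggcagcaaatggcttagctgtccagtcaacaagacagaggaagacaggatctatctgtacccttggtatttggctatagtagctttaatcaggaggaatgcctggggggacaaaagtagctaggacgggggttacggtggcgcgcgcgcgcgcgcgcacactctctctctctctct
Kcnip4, chr5:49285610-49285909, minus strand, the first of 2 windows: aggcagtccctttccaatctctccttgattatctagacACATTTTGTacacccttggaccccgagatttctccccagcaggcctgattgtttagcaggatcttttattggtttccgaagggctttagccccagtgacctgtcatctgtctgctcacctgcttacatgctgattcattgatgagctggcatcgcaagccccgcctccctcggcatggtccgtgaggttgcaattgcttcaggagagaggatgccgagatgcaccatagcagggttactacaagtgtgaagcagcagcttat
Kcna5, chr6:126535506-126535805, minus strand: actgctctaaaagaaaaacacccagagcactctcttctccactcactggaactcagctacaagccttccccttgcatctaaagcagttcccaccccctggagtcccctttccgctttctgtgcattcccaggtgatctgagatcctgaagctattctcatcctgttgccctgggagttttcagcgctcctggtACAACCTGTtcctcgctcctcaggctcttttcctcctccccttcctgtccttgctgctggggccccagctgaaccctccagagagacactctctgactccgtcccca

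The Kcnk2 window held 1 half-site, the Kcnip4 and Kcna5 windows 1 core each, and the Kcnk1 window neither motif. The other 3 Kcnk2 windows held no match, and the other Kcnip4 window held 3 half-sites. The core was found in 6.85% of all 32851 windows in the table and in 5 of 85 windows of 60 measured Kcn genes. The half-site was found in 18.97% of all windows and in 15 of the 85. The shares lay close to those of all windows, and a match is a run of letters, not a measured binding site.

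Lifetime overexpression was the condition with the widest changes in potassium channel genes, and these were in DG. Of 49 Kcn genes that passed the filter on low signal, 13 passed at an adjusted p under 0.05 (limma, Benjamini-Hochberg over all 11301 features). The share was 26.5%, against 15.3 percent of all features. Rises numbered 5 (10.2%, against 8.88 percent of all features) and falls 8 (16.3%, against 6.45 percent). Kcnk2, Kcnk1, Kcnq1ot1, Kcnf1 and Kcna1 rose, and Kcnip4, Kcnq3, Kcnh7, Kcnq1, Kcnh3, Kcnd3, Kcna2 and Kcnk13 fell. The median difference was −0.15 log2, with 13 of 49 above 0, against a median of 0.00 over all features. When the fit included each array's interquartile range, 2 of the 13 passed, Kcnk2 and Kcnip4. When both regions were fitted together with a random block for the animal, 8 genes passed, 5 as higher and 3 as lower. The shares of all features that passed in those fits are not given here, so the losses are not read as particular to Kcn genes.

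In early overexpression, of the same 49 genes in DG 9 passed (18.4%, against 11.4 percent of all features), 2 as higher (4.08%, against 6.17 percent) and 7 as lower (14.3%, against 5.26 percent). Kcnk2 and Kcnq1ot1 rose, and Kcnt1, Kcnh7, Kcnq1, Kcnh3, Kcnmb4, Kcnd3 and Kcnk13 fell. The median difference was −0.12, with 12 of 49 above 0, against −0.01 over all features. Granule cell markers moved in the same comparison: 8 of 8 lay above 0 in early, with a median of +0.31 and 2 passing as higher, and in lifetime 4 of 8 lay above 0, with a median of −0.02 and 1 passing. Their mean per array was 10.39 to 10.86 in early, 10.28 to 10.71 in lifetime and 10.002 to 10.84 in control, and the part of this in the Kcn results was not tested. None of the 49 passed once that range was included, when 6 had an unadjusted p under 0.05. With the animal as a random block 3 passed, Kcnq1ot1, Kcnh7 and Kcnk13. The count was 3 without early array 3, 2 without early array 4 and 5 without early array 5. Shares of all features in these fits are not given here either. Both DG comparisons use the same 6 control arrays, so their values are set side by side below and are not independent.

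**Figure D1:**
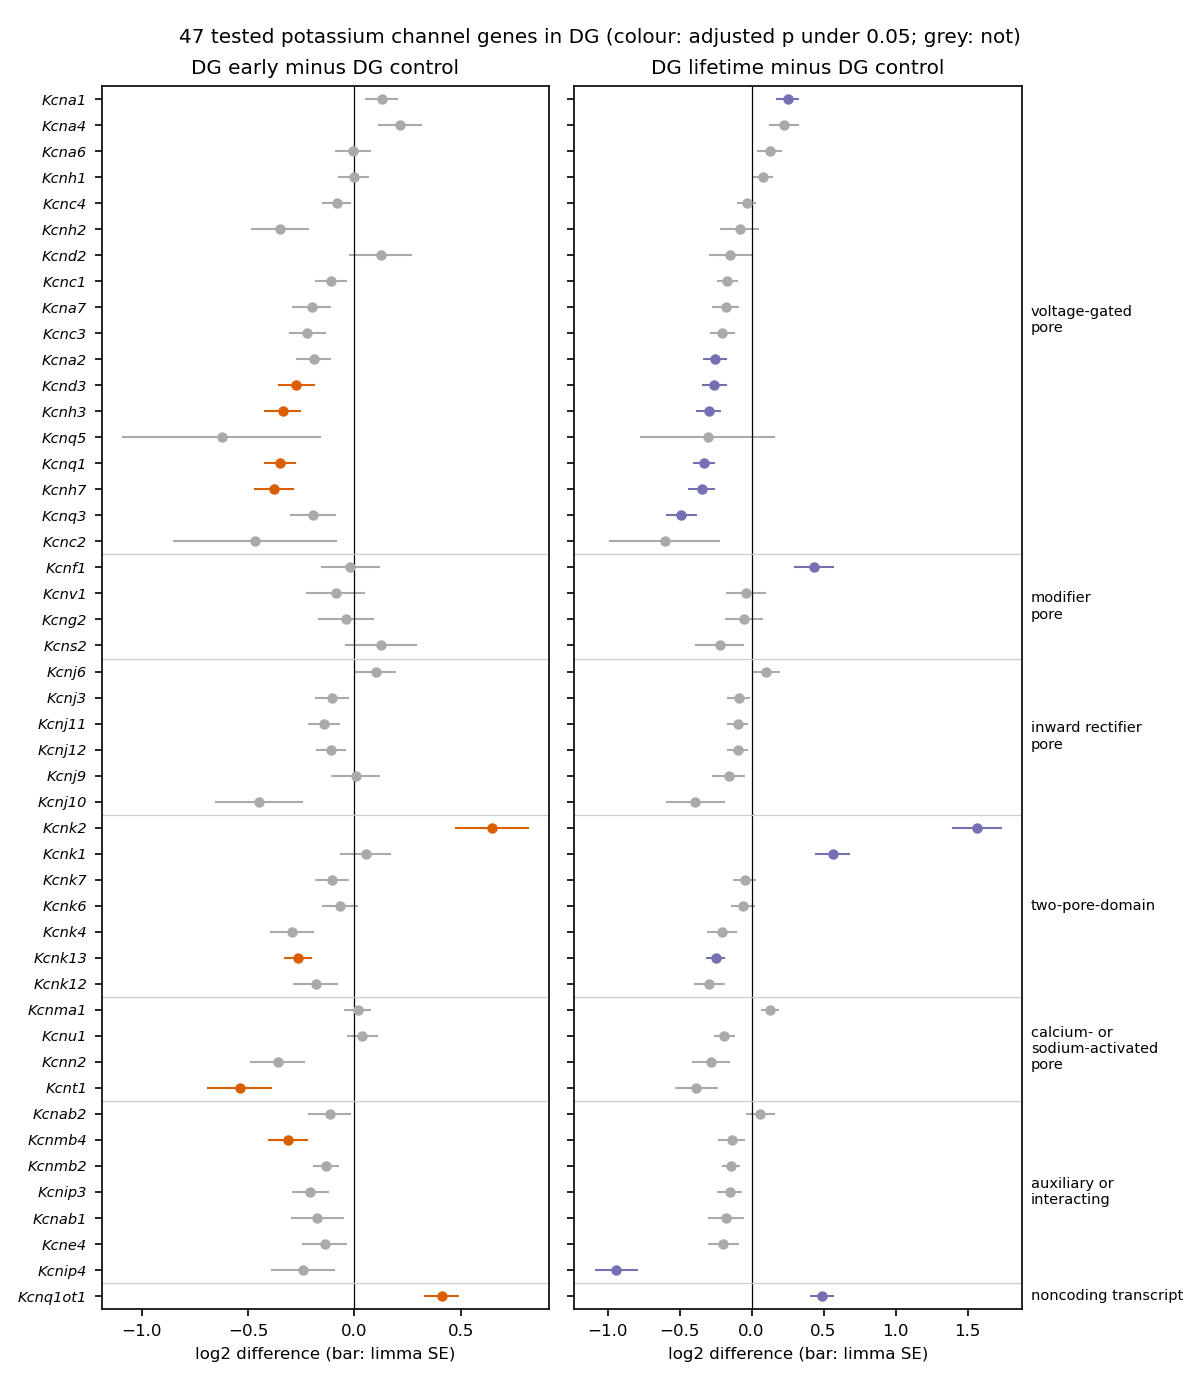
Log2 difference from DG control of 47 tested Kcn genes, ordered by role, for DG early (left) and DG lifetime (right), with the limma standard error as a bar and colour for an adjusted p under 0.05. Most points lie left of 0 in both panels (11 of the 47 lie above it in each), while Kcnk2 reaches 1.56 and Kcnip4 −0.94 in DG lifetime; the axes of the panels differ in range.

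The two-pore-domain genes encode background channels that hold the resting potential, and they contained the largest rise. Of 7 tested, 1 rose and 1 fell in early, where 6.17 percent of all features rose and 5.26 percent fell. In lifetime 2 rose and 1 fell, where 8.88 percent of all features rose and 6.45 percent fell. Kcnk2 encodes a background channel (TREK-1) opened by membrane stretch, warmth and lipids. Its lowest, median and highest signals in DG were 8.49, 8.81 and 9.29 in early, 9.37, 9.71 and 10.28 in lifetime, and 7.72, 8.26 and 8.51 in control. All lifetime arrays lay above all early and control arrays, and the early arrays overlapped the control arrays only at the lowest early value. The differences from control were +0.65 (SE 0.17, adjusted p = 0.0270) in early and +1.56 (SE 0.17, adjusted p = 1.93e-05) in lifetime, above the control mean in 6 of 6 arrays each. The early difference was +0.27 (adjusted p = 0.610) with the array range as a covariate and missed the threshold without early array 3, 4 or 5 or control array 15 or 17. The lifetime difference was +1.12 (adjusted p = 0.00466) with that covariate and passed without each array in turn.

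Kcnk1, for the weakly conducting background channel TWIK-1, changed in lifetime. Signals in DG were 9.75, 10.13 and 10.34 in early, 10.41, 10.65 and 10.83 in lifetime, and 9.72, 10.04 and 10.38 in control (lowest, median, highest). Every lifetime array lay above every early and control array, and the early and control ranges overlapped. The lifetime difference was +0.56 (SE 0.12, adjusted p = 0.00660) and the early difference +0.05 (SE 0.12, adjusted p = 0.788). With the array range as a covariate the lifetime difference was +0.48 (adjusted p = 0.233).

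Kcnk13 encodes THIK-1, a halothane-inhibited channel that in brain is known mainly from microglia. In DG its signals were 7.05, 7.10 and 7.16 in early, 6.96, 7.13 and 7.24 in lifetime, and 7.21, 7.35 and 7.53 in control. The early arrays lay below all controls, and the lifetime arrays overlapped them narrowly. It fell by 0.26 in early (SE 0.07, adjusted p = 0.0218) and by 0.25 in lifetime (SE 0.07, adjusted p = 0.0173). The mean of 6 microglial markers was 6.38 to 6.90 in early, 6.37 to 6.79 in lifetime and 6.69 to 6.89 in control, with overlap. Of the 3 markers tested, 1 fell in early and 2 in lifetime. Whether these markers and Kcnk13 vary together over the arrays, and their part in the Kcnk13 result, was not tested. The other 4 tested genes of the role (Kcnk4, Kcnk6, Kcnk7 and Kcnk12) lay between −0.29 and −0.05 in both groups without passing.

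Auxiliary and interacting subunits had 7 tested genes, with 1 fall in each group (5.26 percent of all features fell in early, 6.45 percent in lifetime). Kcnip4 encodes a calcium-binding protein that joins the Kcnd channels of the A-type current and alters their inactivation and surface delivery. Its DG signals were 7.50, 7.79 and 7.97 in early, 6.72, 6.90 and 7.79 in lifetime, and 7.75, 8.06 and 8.22 in control. In lifetime 5 of 6 arrays lay below every early and control array, and the highest lifetime array overlapped both. It fell by 0.94 in lifetime (SE 0.15, adjusted p = 0.000810), and stood at −0.24 in early (SE 0.15, adjusted p = 0.271). The lifetime difference was −1.15 (adjusted p = 0.00589) with the array range as a covariate and passed without each array in turn.

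The Kcnd pore genes that pair with Kcnip4 were measured too. Kcnd2 stood at +0.12 in early and −0.15 in lifetime (SE 0.15, adjusted p = 0.590 and 0.505). Kcnd3 fell by 0.27 in early (SE 0.09, adjusted p = 0.0476) and by 0.26 in lifetime (SE 0.09, adjusted p = 0.0492), but each call held in 3 of 12 fits that left out 1 array. A second Kcnd3 feature stood at −0.07 and −0.05 (adjusted p = 0.402 and 0.537). Kcnip3, for another protein of the Kcnip family, stood at −0.21 and −0.15 (adjusted p = 0.113 and 0.232).

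Kcnmb4 encodes the neuronal beta subunit of the large-conductance calcium-activated (BK) channel. Its DG signals were 8.94, 9.13 and 9.30 in early, 9.04, 9.26 and 9.62 in lifetime, and 9.22, 9.47 and 9.57 in control, with overlap in both comparisons. It fell by 0.31 in early (SE 0.09, adjusted p = 0.0366) and stood at −0.14 in lifetime (adjusted p = 0.300). The early call held in 5 of 12 fits without 1 array and was lost with arrays centred on their medians. Kcnma1, the BK pore gene, stood at +0.02 in early and +0.13 in lifetime (adjusted p = 0.887 and 0.171).

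Voltage-gated pore genes were the largest role, with 20 tested. In early 4 fell and none rose, where 5.26 percent of all features fell and 6.17 percent rose. In lifetime 6 fell and 1 rose, where 6.45 percent of all features fell and 8.88 percent rose. Medians of the 20 were −0.19 in early and −0.17 in lifetime. None of their calls held with the array range as a covariate. Kcnq3 encodes a subunit of the M-current, which restrains repeated firing. Its DG signals were 7.04, 7.17 and 7.31 in early, 6.53, 6.95 and 7.21 in lifetime, and 7.10, 7.42 and 7.57 in control. All lifetime arrays lay below the control mean although the ranges overlapped, and it fell by 0.49 (SE 0.11, adjusted p = 0.00769). The early difference was −0.19 (SE 0.11, adjusted p = 0.225).

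Kcnq1, best known as the pore of the slow delayed rectifier of heart and inner ear, shares its locus with the noncoding transcript Kcnq1ot1, which runs antisense to it and is imprinted. Kcnq1 signals in DG were 6.80, 6.98 and 7.08 in early, 6.81, 6.98 and 7.16 in lifetime, and 7.14, 7.31 and 7.52 in control. Kcnq1ot1 signals were 7.28, 7.45 and 7.54 in early, 7.28, 7.54 and 7.74 in lifetime, and 6.91, 7.02 and 7.21 in control. Kcnq1ot1 was above every control array in both groups, while Kcnq1 was below every control array in early and overlapped the control range narrowly in lifetime. Kcnq1 fell by 0.35 (SE 0.08, adjusted p = 0.0138) in early and by 0.33 (adjusted p = 0.00912) in lifetime. Kcnq1ot1 rose by 0.41 (SE 0.08, adjusted p = 0.0101) in early and by 0.49 (adjusted p = 0.00113) in lifetime. These 4 calls held without each array in turn, those of Kcnq1 were lost with the animal as a block, and none held with the array range as a covariate. The transcripts overlap in the genome, and the probes' strand is not given in the sources used here.

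The Kcnh genes encode channels of the ether-à-go-go family. Kcnh7, of the Erg type, had DG signals of 6.32, 6.62 and 6.69 in early, 6.30, 6.57 and 6.80 in lifetime, and 6.78, 6.91 and 7.04 in control. Kcnh3, of the Elk type, had 7.51, 7.77 and 7.84 in early, 7.47, 7.80 and 7.86 in lifetime, and 7.88, 8.04 and 8.28 in control. Kcnh3 lay below every control array in both groups, and Kcnh7 did so in early. Kcnh7 fell by 0.38 (adjusted p = 0.0218) in early and 0.34 (adjusted p = 0.0203) in lifetime, and Kcnh3 fell by 0.34 (adjusted p = 0.0250) and 0.30 (adjusted p = 0.0286). With the array range included the differences were −0.16 and −0.09 for Kcnh7 and −0.18 and −0.12 for Kcnh3, and none passed. The other Erg gene tested, Kcnh2, stood at −0.35 and −0.08 (adjusted p = 0.0929 and 0.705), and its control range includes array 15 at 7.56.

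Shaker-type Kcna genes, which set axonal threshold, went both ways in lifetime. Kcna1 rose by 0.25 (SE 0.08, adjusted p = 0.0368), and its signals were 11.13, 11.35 and 11.54 against 10.94, 11.07 and 11.25 in control. Kcna2 fell by 0.25 (SE 0.08, adjusted p = 0.0421), and its signals were 7.98, 8.12 and 8.26 against 8.11, 8.40 and 8.50 in control. Both ranges overlapped those of control, and the calls held in 4 and 2 of 12 fits without 1 array. In early they stood at +0.13 and −0.19 (adjusted p = 0.256 and 0.115). Kcna4, of the same subfamily, stood at +0.22 in both groups and did not pass.

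Among modifier pores, which assemble with other voltage-gated subunits, 1 of 4 tested passed, as higher in lifetime (8.88 percent of all features rose there). Kcnf1 rose by 0.44 in lifetime (SE 0.14, adjusted p = 0.0406), with signals of 7.64, 7.84 and 8.20 against 6.92, 7.55 and 7.62 in control. The lifetime arrays lay above all controls, and early stood at −0.02 (adjusted p = 0.936). The call was lost in 7 of 12 fits without 1 array.

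Among calcium- or sodium-activated pores, Kcnt1 encodes the sodium-activated channel Slack. Its DG signals were 6.40, 7.05 and 7.25 in early, 6.89, 7.05 and 7.55 in lifetime, and 7.11, 7.48 and 7.93 in control, with overlap in both. It fell by 0.54 in early (SE 0.15, adjusted p = 0.0304) and stood at −0.38 in lifetime (adjusted p = 0.0870). The early call held in 6 of 12 fits without 1 array, and with the array range as a covariate the difference was −0.33 (adjusted p = 0.561). Its second feature gave −0.53 (adjusted p = 0.0235) and −0.30 (adjusted p = 0.122). The small-conductance channel gene Kcnn2 stood at −0.36 and −0.28 (adjusted p = 0.0702 and 0.136). No inward rectifier gene passed among 6 tested in either group (11.4 percent of all features passed in early, 15.3 percent in lifetime). Their differences ran from −0.45 to +0.10 in early and from −0.39 to +0.10 in lifetime. The lowest was that of Kcnj10, the astrocytic rectifier that buffers extracellular potassium (adjusted p = 0.142 and 0.194), whose control range reaches 11.28 on array 15.

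**Figure D2:**
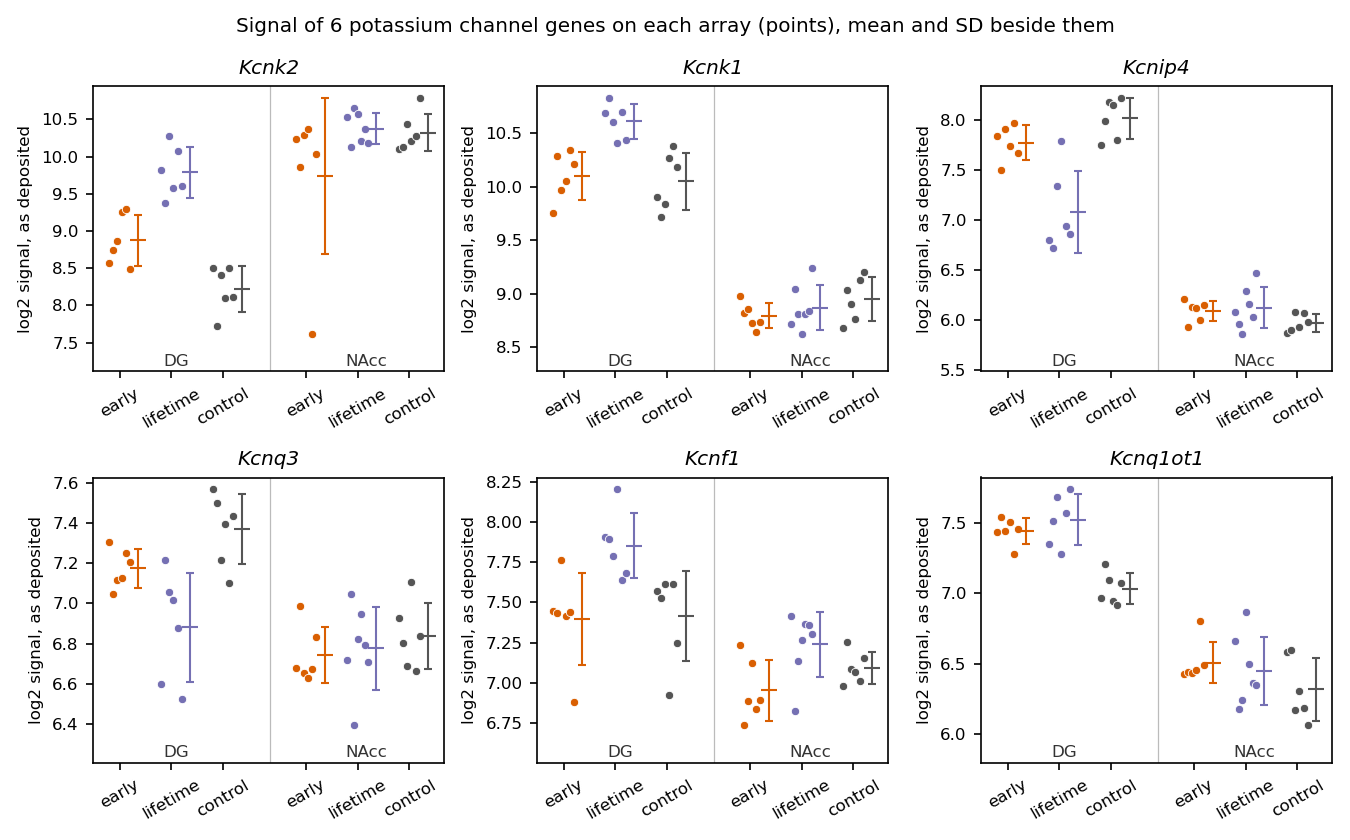
Deposited log2 signal of Kcnk2, Kcnk1, Kcnip4, Kcnq3, Kcnf1 and Kcnq1ot1 on every array (points) of early, lifetime and control in DG (left of each panel) and NAcc (right), with the group mean and SD beside the points. In DG the lifetime points of Kcnk2 (9.37 to 10.28) and Kcnk1 (10.41 to 10.83) lie above all others of that region, and 1 NAcc early point of Kcnk2 lies at 7.62, far below the rest of its group.

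The direct comparison of the overexpressing groups asked which differences depend on the period of overexpression. In DG, 3 of 49 genes differed between lifetime and early (6.12%, against 1.37 percent of all features), 2 higher in lifetime (4.08%, against 0.779 percent) and 1 lower (2.04%, against 0.593 percent). Kcnk2 was higher in lifetime by 0.91 (SE 0.17, adjusted p = 0.00723) and Kcnk1 by 0.51 (SE 0.12, adjusted p = 0.0364), each above the early mean in 6 of 6 lifetime arrays. Kcnip4 was lower by 0.69 (SE 0.15, adjusted p = 0.0202), below the early mean in 5 of 6. All 3 also passed once the array range was included (+0.85, +0.50 and −0.72). The Kcnk2 call alone held without each array in turn. That of Kcnip4 held in 6 and that of Kcnk1 in 4 of 12 fits without 1 array. The Kcnk2 call was lost with the animal as a block (limma, adjusted p = 0.120), where NAcc arrays enter the fit. The next named genes did not pass: Kcnf1 at +0.46, Kcns2 at −0.35, Kcnu1 at −0.23 and Kcnab2 at +0.18.

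In NAcc no Kcn gene passed in any comparison (limma). Of 52 tested, 0 passed in early against control (0.0 percent of all features passed; 3 Kcn genes at an unadjusted p under 0.05), 0 in lifetime against control (0.0 percent; 1) and 0 in lifetime against early (0.00885 percent; 5). Medians were +0.04, −0.03 and −0.05. For lifetime against control, 11 genes had an unadjusted p under 0.05 with array weights and 10 without early array 5 and lifetime array 8, and again none passed. With array weights 1 gene passed in early, Kcnc2 (+1.16, adjusted p = 0.0256, against +0.70 and 0.784 without weights), a fast delayed rectifier gene known from fast-spiking interneurons and picked here after its value was seen. The smallest p values of early belonged to Kcnc4 and Kcnc1, of the same subfamily as Kcnc2, and to Kcna1.

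Kcnc4 signals in NAcc were 7.02, 7.12 and 7.37 in early, 6.70, 6.99 and 7.17 in lifetime, and 6.81, 6.88 and 7.10 in control. Kcnc1 signals were 8.29, 8.46 and 8.78 in early, 8.23, 8.29 and 9.06 in lifetime, and 7.97, 8.12 and 8.42 in control. The ranges of all groups overlapped for both. Early differences were +0.25 for Kcnc4, +0.33 for Kcnc1 and −0.19 for Kcna1 (adjusted p = 0.784 each), and +0.20, +0.27 and −0.14 without array 5. The modifier gene Kcnv1 stood at +0.07 in early (adjusted p = 0.823). In lifetime the smallest p values were those of Kcnc1 (+0.28), Kcnt1 (−0.40) and Kcnj16, an astrocytic rectifier (+0.17), with an adjusted p of 1.0 each. Between lifetime and early they were those of Kcna1 (+0.23), Kcnf1 (+0.29) and Kcnc4 (−0.23), with an adjusted p of 0.572 each. Without array 5 they were +0.18, +0.26 and −0.19. Against control, the second Kcnc1 feature stood at +0.21 in early and +0.09 in lifetime, and the second Kcnt1 feature at −0.09 in lifetime.

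For the genes called in DG lifetime, NAcc ranges overlapped throughout. Kcnk2 signals in NAcc were 7.62, 10.14 and 10.38 in early, 10.12, 10.37 and 10.65 in lifetime, and 10.11, 10.25 and 10.78 in control. The lowest early value was array 5, and the early difference was −0.59 with it and −0.16 without it (adjusted p = 0.778). Kcnip4 signals were 5.93, 6.12 and 6.20 in early, 5.86, 6.08 and 6.47 in lifetime, and 5.86, 5.95 and 6.08 in control.

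Whether the overexpression effect differed between regions was tested on DG minus NAcc within each animal, after each array was centred on its median. Kcnip4 was the 1 gene of 50 that passed for the lifetime effect (2%, against 0.513 percent of all features), at −0.99 (SE 0.17, adjusted p = 0.00815). Its mean was 5.97 in NAcc control, near the NAcc filter of 5.77, and 8.01 in DG control. A level that low may be background, where a fall could not show, and its part in this result was not tested. Kcnk2 (+1.52, adjusted p = 0.206) and Kcnk1 (+0.75, adjusted p = 0.0685) did not pass. Without animal 5, the animal of the array that stood apart, those differences were the same and their spread smaller, and all 3 passed (adjusted p = 0.000957 for Kcnip4, 0.000130 for Kcnk2 and 0.00725 for Kcnk1). For the early effect none of 50 passed (0.0 percent of all features; 8 Kcn genes at an unadjusted p under 0.05). Among those with the smallest p values were Kcnc1 (−0.33, adjusted p = 0.152) and Kcnk2 (+1.34, adjusted p = 0.194). The second Kcnc1 feature stood at −0.15. Without animal 5 the Kcnk2 difference was +0.78 (adjusted p = 0.0836).

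The regions themselves differed in most potassium channel genes. Of 50 tested in the 18 animals, 41 differed between DG and NAcc (82%, against 73.0 percent of all features), 22 higher in DG (44%, against 39.5 percent) and 19 lower (38%, against 33.5 percent). These shares lay near those of all features. The fit pooled early, lifetime and control animals, so genes changed in DG lifetime have differences averaged over unlike groups. The differences are relative to each array's median, because medians were 0.66 log2 higher in DG on average. On the deposited scale 39 were higher and 5 lower in DG, and after quantile normalization of all arrays 21 and 22. The shares of all features under those settings are not given here, so these counts are not read as particular to Kcn genes. Without animal 5 all 24 genes named in this comparison passed with the same sign, and none moved by more than 0.19 (Kcnk2). Region and any hybridization batch cannot be told apart, since the labels give no batch.

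The widest difference was that of Kcna5, a Shaker-type channel gene. Relative to the array median its signals were −2.95, −2.70 and −2.36 in DG and 0.39, 2.72 and 3.42 in NAcc (lowest, median, highest of 18). The regions did not overlap, and the lowest NAcc value was array 5. The difference was −5.27, or −5.40 without animal 5. Kcna5 passed the filter only through NAcc: its DG signals as deposited, 3.91 to 4.51 over the 3 groups, lay below the DG filter of 6.34, so the size is that of a signal against a level that may be background, and no p is given. Kcnip1 and Kcnj13 were also below the filter in DG, and Kcnk4 in NAcc; of the 46 genes above it in both regions 21 were higher and 16 lower in DG.

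Kcnq5, Kcnk2 and Kcnt1 followed. Kcnq5, an M-current subunit gene, was at −0.79, 0.66 and 2.43 in DG and 1.14, 2.88 and 3.204 in NAcc (difference −1.92, SE 0.21, adjusted p = 7.04e-08). Kcnk2 was at 0.83, 1.96 and 3.45 in DG and 1.12, 4.07 and 4.61 in NAcc (difference −1.85, SE 0.23, adjusted p = 4.99e-07; −2.04 without animal 5). Kcnq5 was lower in DG in 18 of 18 animals and Kcnk2 in 17, animal 5 being the exception. As deposited the DG and NAcc means of Kcnk2 were 8.23 and 10.32 in control and 9.79 and 10.38 in lifetime. Kcnt1 was lower in DG by 1.36 (18 of 18), and its second feature by 1.77. Further lower genes were Kcnip1 (−0.92), Kcnk6 (−0.71), Kcnj13 (−0.69), Kcnk13 (−0.62), Kcne4 (−0.52), Kcnh3 (−0.49), Kcnh2 (−0.48) and Kcna7 (−0.43). The last 5 of these had the opposite sign on the deposited scale, and Kcnk6 and Kcnj13 did not pass there.

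Among the genes higher in DG were Kcnc4, for a channel of rapid repolarization, and Kcnab2, the cytoplasmic beta subunit of Kcna channels. Kcnc4 was at 1.82, 1.96 and 2.09 in DG and 0.57, 0.84 and 1.05 in NAcc (difference +1.16, SE 0.04, adjusted p = 5.66e-16). Kcnab2 was at 0.65, 0.91 and 1.19 in DG and −0.44, −0.23 and 0.69 in NAcc (difference +1.12, SE 0.07). Both were higher in DG in 18 of 18 animals, and the highest NAcc value of Kcnab2 was array 5. Kcna4, the Kcnd genes and Kcnip4, which are among the genes of the A-type current, were split. Kcnip4 (+0.92) and Kcna4 (+0.89) were higher in DG in 18 of 18 animals, Kcnd3 was lower relative to the array median (−0.32, SE 0.05, adjusted p = 2.17e-06) but not as deposited (means of 6.62 in DG and 6.29 in NAcc), and Kcnd2 did not pass (+0.25, adjusted p = 0.154). Also higher in 18 of 18 were Kcnu1 (+0.99), known as a sperm channel in mouse, Kcnj9 (+0.74), Kcnmb4 (+0.71) and Kcna1 (+0.63). Kcnc2 (+1.05) was higher in 15 of 18, and Kcnk1 (+0.74) and Kcng2 (+0.68) in 17. Mean signals in NAcc control were 5.90 for Kcnu1, 5.82 for Kcnj9, 5.91 for Kcng2, 5.97 for Kcnab2 and 5.97 for Kcnip4. These lay near the NAcc filter of 5.77, so the sizes for those genes are against a level that may be background. As deposited the DG and NAcc means of Kcnip4 were 8.01 and 5.97 in control and 7.07 and 6.12 in lifetime. Those of Kcnk1 were 10.05 and 8.95 in control and 10.61 and 8.87 in lifetime. Kcnc1 was higher by 0.87, but its second feature was lower by 0.28 (adjusted p = 7.31e-07).

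**Figure D3:**
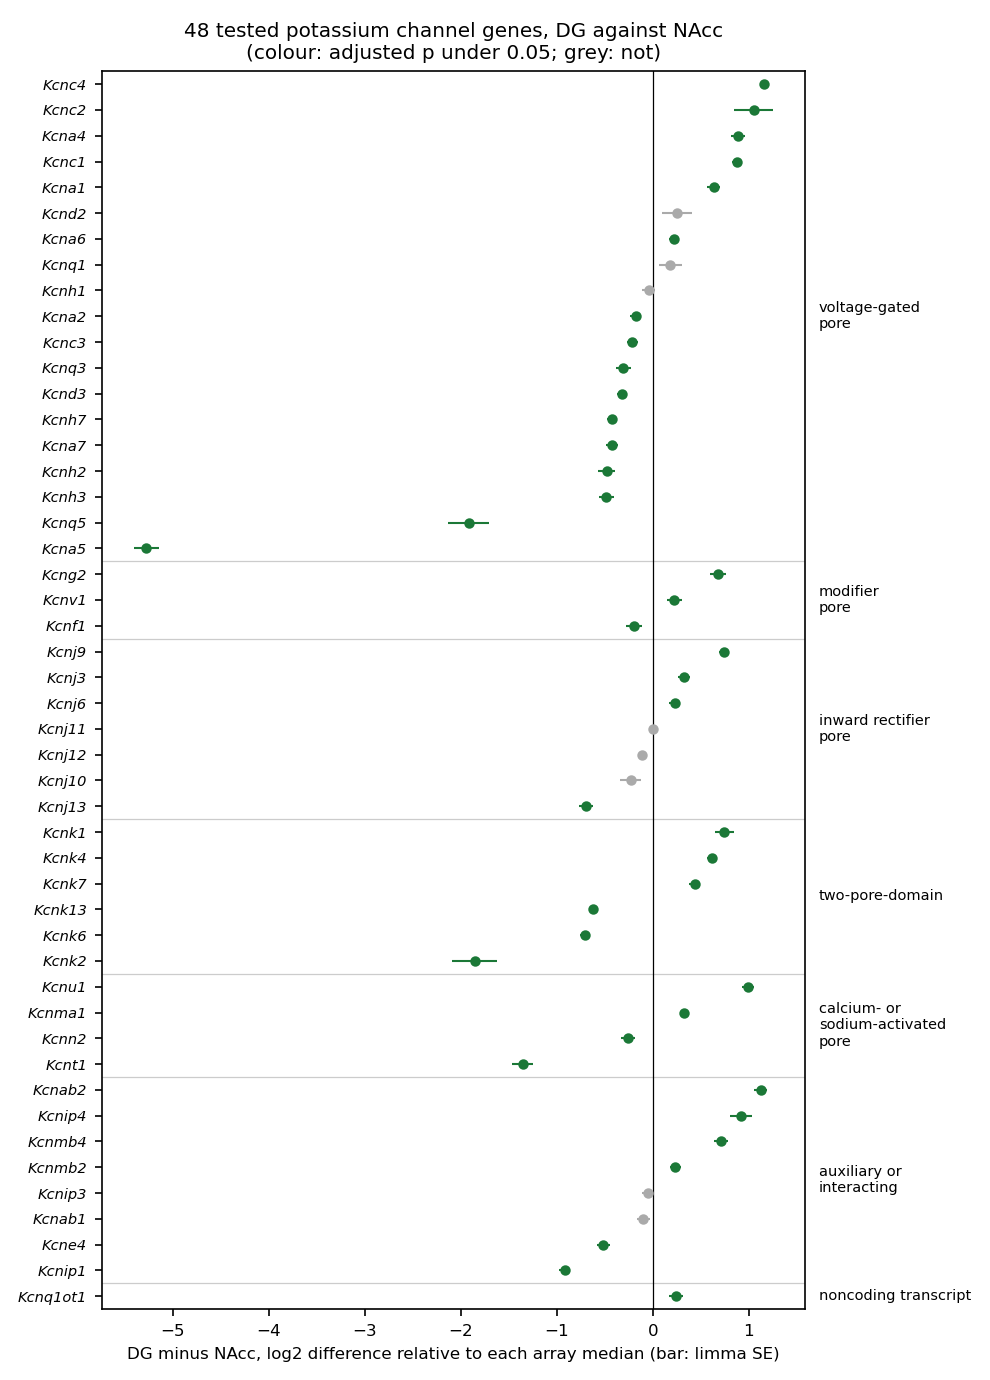
Log2 difference DG minus NAcc of 48 tested Kcn genes, relative to each array's median and ordered by role, with the limma standard error as a bar and colour for an adjusted p under 0.05. Kcna5 stands at −5.27 and the other points lie between −1.92 and +1.16.

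**Figure D4:**
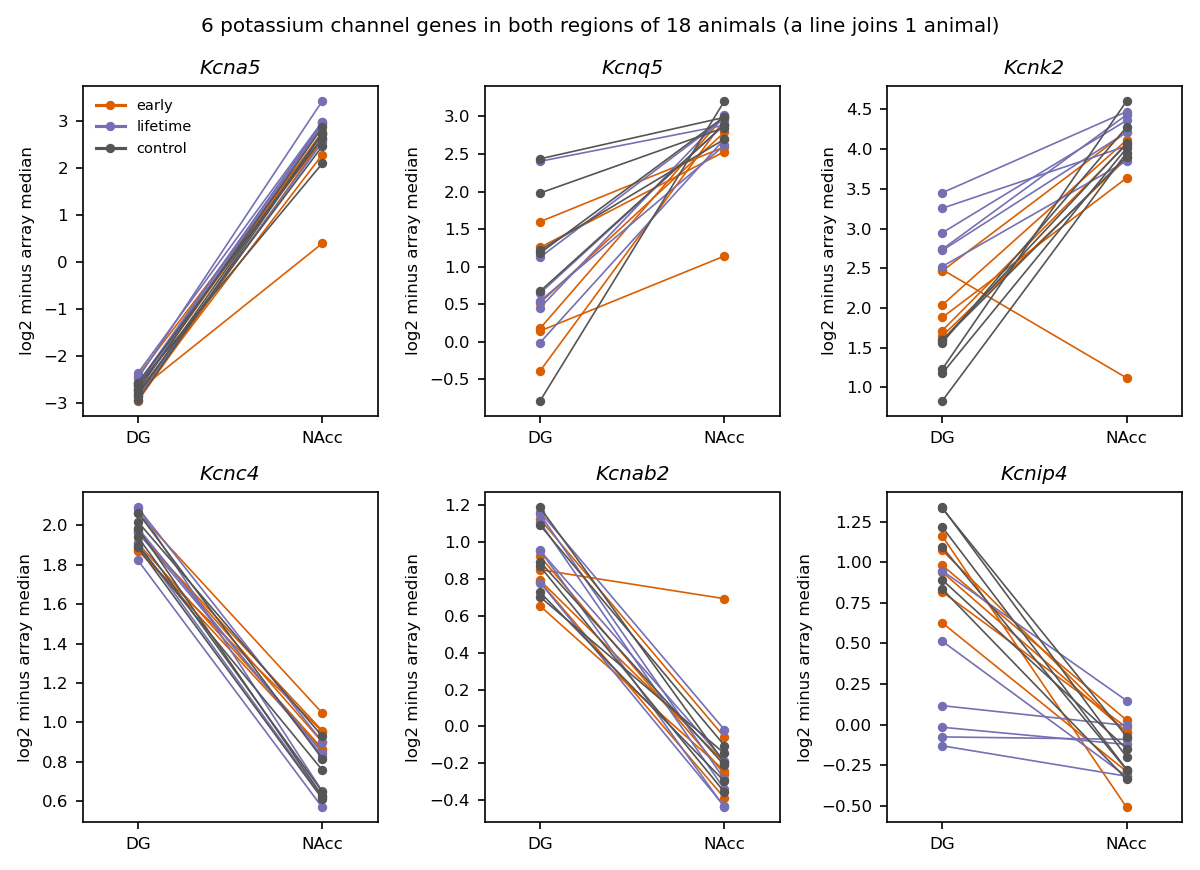
Log2 signal relative to the array median in DG (left) and NAcc (right) of each of 18 animals for 6 Kcn genes, a line joining the regions of 1 animal and colours marking early, lifetime and control. One early line runs against the rest for Kcnk2 and flatter than the rest for Kcna5 and Kcnab2 (animal 5).

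By role, where 39.5 percent of all features were higher and 33.5 percent lower in DG, the calls were as follows. Of 21 voltage-gated pore genes 7 were higher and 10 lower in DG, of 6 two-pore-domain genes 3 and 3, of 7 inward rectifiers 3 and 1, and of 8 auxiliary genes 4 and 2. The G protein-gated rectifier genes Kcnj3 (+0.33), Kcnj6 (+0.23) and Kcnj9 (+0.74) were higher in DG. Their NAcc control means (6.03, 6.12 and 5.82 in that order) lay near the NAcc filter of 5.77. Kcnj5, of the same group, fell below the filter and was not tested. Relative to the array median its NAcc signals (−0.68 to −0.16) lay above all its DG signals (−1.46 to −1.20). As deposited the regions overlapped, the highest DG signal being 5.68 and the lowest NAcc signal 5.53. The separation of Kcnj5 therefore depends on the centring, and its low signal cannot be told from background. Of the M-current genes Kcnq5 was lower, and Kcnq3 was lower (−0.31) relative to the array median but higher as deposited (means of 7.14 in DG and 6.79 in NAcc).

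Members differed widely in their spread within groups. The pooled SD between arrays of a group had a median of 0.16 over the 49 tested genes in DG and 0.22 over the 52 in NAcc. In DG it was highest for Kcnq5 (0.92) and Kcnc2 (0.76). Kcnq5 signals in DG were 6.46, 7.18 and 8.46 in early, 6.81, 7.46 and 9.24 in lifetime, and 6.10, 8.10 and 9.28 in control, so the groups overlapped fully. The mean of 7 interneuron markers moved with Kcnq5. Over the 18 DG arrays, with group means removed, Pearson's r was 0.85 (permutation test with 100000 draws, two-sided, adjusted p = 0.000160) and Spearman's rho 0.82 (permutation test, adjusted p = 0.000400). Without the 2 arrays farthest from the median of the marker mean r was 0.76. For Kcnc2 r was 0.28 and rho 0.27 (permutation test, adjusted p = 0.518 and 0.564), and r was 0.04 without those 2 arrays. Against 5 pyramidal and mossy cell markers r was −0.12 for Kcnq5 and 0.06 for Kcnc2 (permutation test, adjusted p = 0.809 each). The 4 relations were chosen after the spread was seen, and p values were adjusted over them. The arrays share RNA input and amplification, whose part in the relation was not tested.

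**Figure D5:**
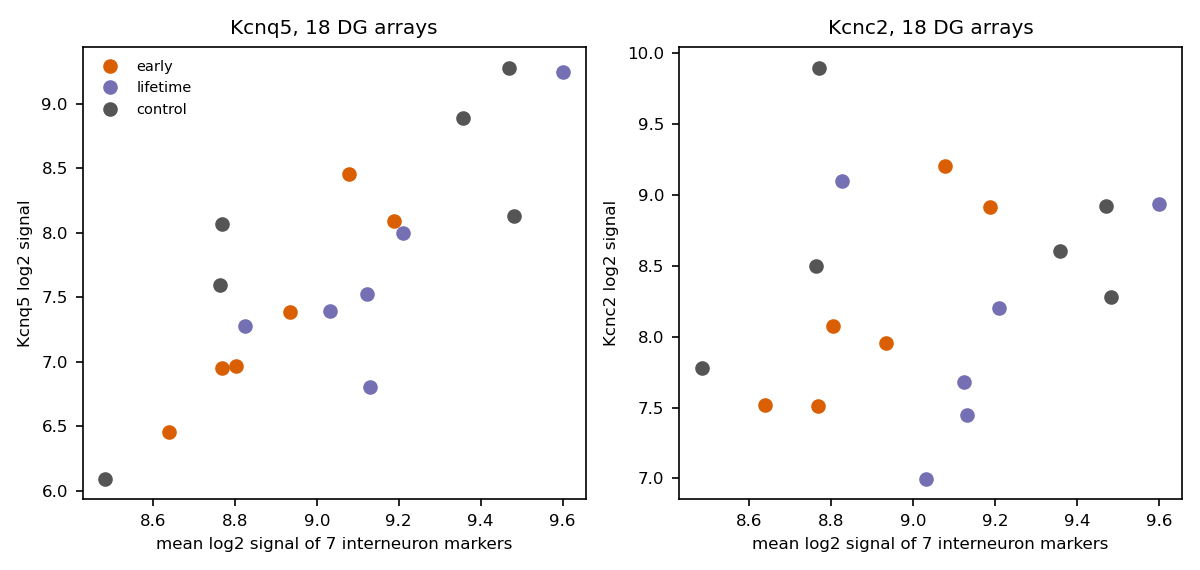
Log2 signal of Kcnq5 (left) and Kcnc2 (right) on each of 18 DG arrays against the mean log2 signal of 7 interneuron markers on the same array, coloured by early, lifetime and control. Kcnq5 climbs with the marker mean over the 18 arrays (r = 0.85 with group means removed), and Kcnc2 shows no such order (r = 0.28).

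Genes outside the Kcn symbols whose products bind, anchor or accompany these channels formed a list of 21, of which 19 were on the array. In DG 1 of 15 tested passed in each comparison with control, a smaller share than that of all features (11.4 percent in early, 15.3 percent in lifetime). This was Ank3, for ankyrin-G, which anchors Kcnq3-containing channels at the axon initial segment. Its DG signals were 10.23, 10.39 and 10.50 in early, 10.24, 10.45 and 10.53 in lifetime, and 9.89, 10.11 and 10.25 in control. It rose by 0.30 in early (SE 0.08, adjusted p = 0.0250) and by 0.33 in lifetime (SE 0.08, adjusted p = 0.00982). Its values with the array range as a covariate, with the animal as a block or without 1 array are not given here. Any link to the fall of Kcnq3 in lifetime was not tested. The median of the 15 was −0.06 in both comparisons. None of 16 tested passed in NAcc. Between regions 6 of 15 were higher and 8 lower in DG, where 39.5 and 33.5 percent of all features were. Cntnap2, which clusters Kcna channels along axons, was at −1.92, and Dpp10, an auxiliary subunit of Kcnd channels, at −1.38. Lgi1, a secreted protein that modulates Kcna channels, was at +1.72.

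Of the 82 Kcn genes 33 fell below the filter in DG and 30 in NAcc. They included Kcna3, Kcne1, Kcne2, Kcne3, Kcnj2, Kcnj14, Kcnj15, Kcnk3, Kcnk5 and Kcnmb4os1. With no filter, 11 of all 82 passed in DG early (13.41%, against 10.6% of all 18835 features) and 15 in DG lifetime (18.29%, against 13.89%). The strength of the calls rests on 6 or 7 arrays a group, and no counting depth applies to arrays.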

How the data were processed

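The deposited file holds log2 expression values per RefSeq accession, which the authors computed by RMA according to the submitters' processing notes. The probe set definition, the probes' strand and hybridization batches are not given in the sources used here. Of 24142 accessions 20920 matched a symbol in the RefSeq table, and accessions with identical values were merged into 18835 features. Features whose mean was under the 40th percentile (6.34 in DG, 5.77 in NAcc, 6.06 over all arrays) were left out, which kept 11301. Each region was fitted with limma 3.58.1 (R 4.3.3) over its 3 groups, with Benjamini-Hochberg adjustment at 0.05. Regions, and the difference of effects between them, were fitted on array-median-centred values with the animal as a block in 18 animals. The scripts were tested on simulated data.

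Genes named were, within a region, Kcn genes that passed (up to 12 each way) or otherwise the 3 with the smallest p; between regions, the 12 widest each way; for differences of effects, up to 10 that passed or the 3 with the smallest p; the gene with the smallest p of each subfamily; and up to 4 partners. Others named were chosen for their role or after their values were seen. The Kcn genes and the lists were chosen with earlier results of these data known. The animal pairing comes from the series' design and shared numbers in the labels. After group means were removed, the arrays of an animal correlated at −0.20 to 0.47, above 0 in 12 of 18. Alternatives were filters, normalizations, array weights, a range covariate, blocks and leaving out arrays. Arrays give no counting depth. Within a region, p-values measure the spread between the animals of a group. Those between regions and for differences of effects rest on the spread of DG minus NAcc differences between animals. Those of Kcnq5 and Kcnc2 against marker lists come from permuted arrays. Results of some genes are not reported here.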

Additional observations from a re-analysis of the deposited data

Results flagged for a closer look

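A single array stood far from the others of its group (Dixon's test) in 26 of 228 groups examined over 38 Kcn genes, where chance flags about 5%. Array 5 of NAcc early accounted for 14 of them. Its signals were Kcna4 8.36, Kcna7 8.20, Kcnab2 7.20, Kcne4 7.68, Kcng2 7.57, Kcnh3 9.10, Kcnh7 7.10, Kcnip1 7.37, Kcnq1 8.44, Kcnq1ot1 6.80 and Kcns2 5.96, each above the rest of the group, and Kcna5 6.90, Kcnk2 7.62 and Kcnq5 7.645, each below it.

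Array 13 of NAcc lifetime, which has no DG partner, stood apart for Kcnc1 at 9.06, Kcne4 at 6.32, Kcnj10 at 10.84, Kcnk6 at 6.99 and Kcnq5 at 8.38. Array 8 of NAcc lifetime did so for Kcnd3 at 6.41 and Kcnh7 at 6.73, and array 18 of NAcc control for Kcnh7 at 6.78. In DG, control array 15 was apart for Kcne4 at 7.48, Kcnh2 at 7.56 and Kcnj10 at 11.28, and lifetime array 10 for Kcnn2 at 8.23.

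The lifetime effect on Kcnip4 differed between the regions by −0.99 (limma interaction, adjusted p = 0.00815). Its NAcc signal was low (control mean 5.97, NAcc filter 5.77), and the part of that low level in the difference was not tested.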

How the results depend on the processing

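The number of Kcn genes called in DG early (9 of 49 tested) was 3 of 27 tested with the 60th percentile filter. It was 0 with the array range as a covariate, 14 with array weights and 14 at an adjusted p threshold of 0.10. It was 3 when the animal was a random replicate block, and 2 to 13 when 1 array was left out. In DG lifetime (13 of 49 tested) it was 7 of 27 tested with the 60th percentile filter, 2 with the covariate and 8 with the block. Without 1 array it was 7 to 15, the lowest without lifetime array 9. Between lifetime and early (3) it was 1 to 3 without 1 array, being 1 without early array 3 or lifetime array 7, 8 or 11. In NAcc early (0) it was 1 with array weights. Between regions (41) it was 69 with no filter (84.15%, against 80.64% of all features) and 20 of 26 tested with the 60th percentile filter. For the lifetime effect between regions (1) it was 2 without the replicate block, 2 on deposited values and 3 with animal 5 left out. Apart from fits with no filter, shares of all features under these settings are not given here, so the counts are not read as particular to Kcn genes. On deposited values the DG minus NAcc differences of Kcnk13 (0.0351), Kcne4 (0.14), Kcnh3 (0.17), Kcnh2 (0.18) and Kcna7 (0.23) had the opposite sign, the array medians being higher in DG. Causes of the other shifts were not tested. Low signals cannot be told from background, and 6 or 7 arrays a group limit what can be detected.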
